A study of Cyanidioschyzon merolae strain 10D with 7 samples.

Results

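The regions described here are short stretches of chromatin carrying trimethylated lysine 27 of histone H3 (H3K27me3) inside the small chromosomes of the unicellular red alga *Cyanidioschyzon merolae*. They were selected on measured peak positions: a region is a stretch of bases covered by a peak in at least 2 of the 3 peak lists called against input, shorter than 2000 bp, with its midpoint over 50 kb from both ends of the chromosome span, on chromosomes 1 to 10. The span of a chromosome ran to the farthest peak end in any of the 6 lists, so it is a lower bound on the true length. This selection gave 302 of 1337 consensus regions (22.6%), which held 296921 bp, or 12.6% of the consensus bases. Their position, length and enrichment over input follow from the selection and are given as a description, without a test.

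H3K27me3 is laid down by Polycomb Repressive Complex 2 (PRC2), whose catalytic subunit is a homolog of E(z), and it is known in animals and plants as a mark of silenced genes. In many of those organisms it forms broad domains over developmental genes, whereas in several unicellular eukaryotes it is also found on repeats and near chromosome ends. *C. merolae* lives in hot acidic springs and has a very small nuclear genome with few introns and short distances between genes.

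The regions come from chromatin immunoprecipitation followed by sequencing (ChIP-seq) of strain 10D, grown as shaken liquid cultures at 42 °C in continuous light, with no treatment and no genetic change. The 7 libraries comprised 3 of H3K27me3 and, as controls, 3 of total histone H3 and 1 of input chromatin. Each H3K27me3 immunoprecipitation (tags IP6, IP7 and IP8) has a list of broad peaks called against H3 and one called against input, which makes 6 lists. The labels do not pair these tags with their numbered biological replicates, the lists against input share the single input library, and which H3 library served each list is not stated in the sources used here. The lists hold no read counts, so the depth is unknown, and n = 3 below stands for 3 lists whose SD measures only the spread between these immunoprecipitations.

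The 302 short interior regions had a median length of 962.5 bp and ranged from 57 to 1987 bp. For comparison, chromosomes 11 to 20 held 471 short interior regions with a median of 983 bp. Per megabase of interior there were 61.6 regions on chromosomes 1 to 10 and 48.9 on chromosomes 11 to 20, and the regions took up 6.05% and 4.92% of those interiors. The small chromosomes also carried 126 long interior regions of at least 2000 bp, with a median of 2842.5 bp. Short regions were thus the more numerous kind inside the small chromosomes, but they covered fewer bases than the 389941 bp of the long ones.

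Their number per chromosome ran between 14 on chromosome 6 and 51 on chromosome 9. Chromosome 5 was the most densely populated, with 39 regions, 91.1 per megabase and 9.41% of its interior covered, and chromosome 6 the least, with 32.1 per megabase and 3.35%. The median distance to the nearest other consensus region was 3376 bp, the shortest was 591 bp and the longest 20407 bp. In 79 regions (26.2%) it was within 2000 bp and in 30 over 10000 bp. That neighbour was another short interior region in 225 of 302 cases, a long interior region in 72 and a region of an end zone (the outer 50 kb) in 5.

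The question of how reproducibly the short regions were found was first addressed with the lists against input that defined them. All 3 lists held a peak in 225 regions (74.5%), beside 81.6% of all consensus regions and 75.2% of the short interior regions of chromosomes 11 to 20, and 77 regions rested on 2 lists. The missing peak was most often that of IP7, which overlapped 262 of the 302, whereas IP6 overlapped 272 and IP8 295. Regions on all 3 lists were longer, with a median of 1083 bp, than those on 2 lists, with a median of 700 bp. By the median, their borders varied little against that length: among the 225, the starts of the peaks lay within a median range of 92 bp and the ends within 88 bp. In only 68 of the 225 did both borders fall within 100 bp in all lists, and in 9 the starts or the ends lay over 1000 bp apart. In 13 of the 302 regions a peak of at least 2000 bp was called in at least 1 list, and in none of them was this so in every list that held a peak.

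Enrichment is given as the fold of H3K27me3 signal over its control, averaged over a peak by the peak caller. Most short interior regions were weakly enriched. The median fold against input was 1.68 in IP6, 1.65 in IP7 and 1.70 in IP8, a mean of 1.68 ± 0.0267 (SD, n = 3). This low level was not particular to them. The same mean was 1.61 in all consensus regions and 1.57 in the short interior regions of chromosomes 11 to 20. In long interior regions it was 1.55 (chromosomes 1 to 10) and 1.39 (chromosomes 11 to 20), and in the end zones 1.96. The median −log10 q, which grows as the false discovery rate q of a peak falls, was 9.05, 10.3 and 10.6 in those lists. A fold of at least 2 in all 3 lists was reached by 52 of 302 regions (17.2%), beside 18.3% of all 1337 consensus regions. In 12 regions the fold was at least 3 in every list, and in 32 it stayed under 1.5 in every list. Within a region the 3 lists had a median SD of 0.315 fold. IP7 gave the lowest of the 3 values in 120 of 225 regions and IP8 the highest in 108, so part of this spread followed the library.

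Fold and length were nearly unrelated among the regions. Across the 272 regions with an IP6 peak, Pearson's r of length with fold against input was -0.114, and in IP7 and IP8 it was -0.016 (262 regions) and -0.043 (295 regions). These correlations are across regions of 1 library each, and regions are not independent replicates.

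The highest fold against input was that of a very short region, chr5:54266-54482 (217 bp; all coordinates are those of the deposited lists, whose reference was that of the *C. merolae* Genome Project, v3). Its fold was 5.35 in IP6, 4.23 in IP7 and 5.52 in IP8, a mean of 5.04 ± 0.699 (SD, n = 3). It lay 778 bp from CME019C and 1603 bp from CME020C, both protein-coding genes, and overlapped neither. Against H3 this same region had a peak in IP7 alone, with a fold of 1.94. The other 11 of the 12 highest regions had a peak in all 3 lists against H3.

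A few kilobases farther in, chr5:58269-60242 (1974 bp) was enriched against both controls. Its fold was 3.31, 3.06 and 4.16 against H3 and 5.59, 4.10 and 4.68 against input (IP6, IP7 and IP8). All 6 peaks of this region were between 1899 and 2001 bp long, and 68.3% of it lay in CME021T, a gene annotated as miscellaneous RNA.

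Chromosome 2 supplied 5 of the 12 regions with the highest fold. The strongest, chr2:90120-91023 (904 bp), sat between the protein-coding genes CMB035C, at 82 bp, and CMB036C, at 216 bp. It had a fold of 3.76, 2.93 and 3.72 against H3 and of 5.20, 3.99 and 4.57 against input. The region nearest to the chromosome end, chr2:50368-51476 (1109 bp), had a fold of 3.46, 3.34 and 3.50 against H3, the narrowest spread of the 12 (mean 3.43 ± 0.0819), and of 4.58, 3.69 and 4.35 against input. Another, chr2:137718-139316 (1599 bp), coincided with a gene: 92.3% of it lay inside the protein-coding CMB054C. Its fold averaged 3.00 ± 0.499 against H3 and 4.07 ± 0.287 against input (SD, n = 3 each). Its borders depended on the list, since the peaks against H3 were 3678 to 3893 bp long and the IP6 peak against input 3644 bp, against 1440 bp in IP7 and 1567 bp in IP8. Those longer peaks also reached the next short region, which is not among the 12 and overlaps no gene. The 2 regions therefore share their folds against H3 and their IP6 fold against input. The remaining 2, chr2:106901-107632 (732 bp) and chr2:122992-124338 (1347 bp), had mean folds of 3.20 and 3.02 against H3 and of 3.79 and 3.62 against input.

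A pair of neighbouring regions on chromosome 9, chr9:245474-246319 (846 bp) and chr9:247134-247510 (377 bp), lay in 1 long space between CMI084C and CMI086C. IP6 and IP7 called them as separate peaks, but IP8 joined them in a single peak of 2037 bp, so their IP8 values are the same number. Their mean folds against input were 4.07 ± 0.683 and 3.55 ± 0.437. Against H3 the first had folds of 1.31, 2.28 and 2.80, the widest spread among the 12, and the second 3.24, 2.05 and 2.80. The last 3 of the 12 were chr6:74951-76238 (1288 bp, 3.73 ± 0.714 against H3 and 3.60 ± 0.625 against input), chr1:52060-53355 (1296 bp, 3.15 ± 0.324 and 3.57 ± 0.996) and chr8:280374-281533 (1160 bp, 2.49 ± 0.374 and 3.52 ± 0.360), which ended 42 bp from CMH116C.

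Of these 12 regions, 10 overlapped no gene and 9 lay within 150 kb of a span end, where 38.7% of the 225 regions found in all lists lay. IP7 gave the lowest fold against input in each of the 12. No function was found for their flanking genes in the sources used here, so these are given by identifier only.

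**Figure D1:**
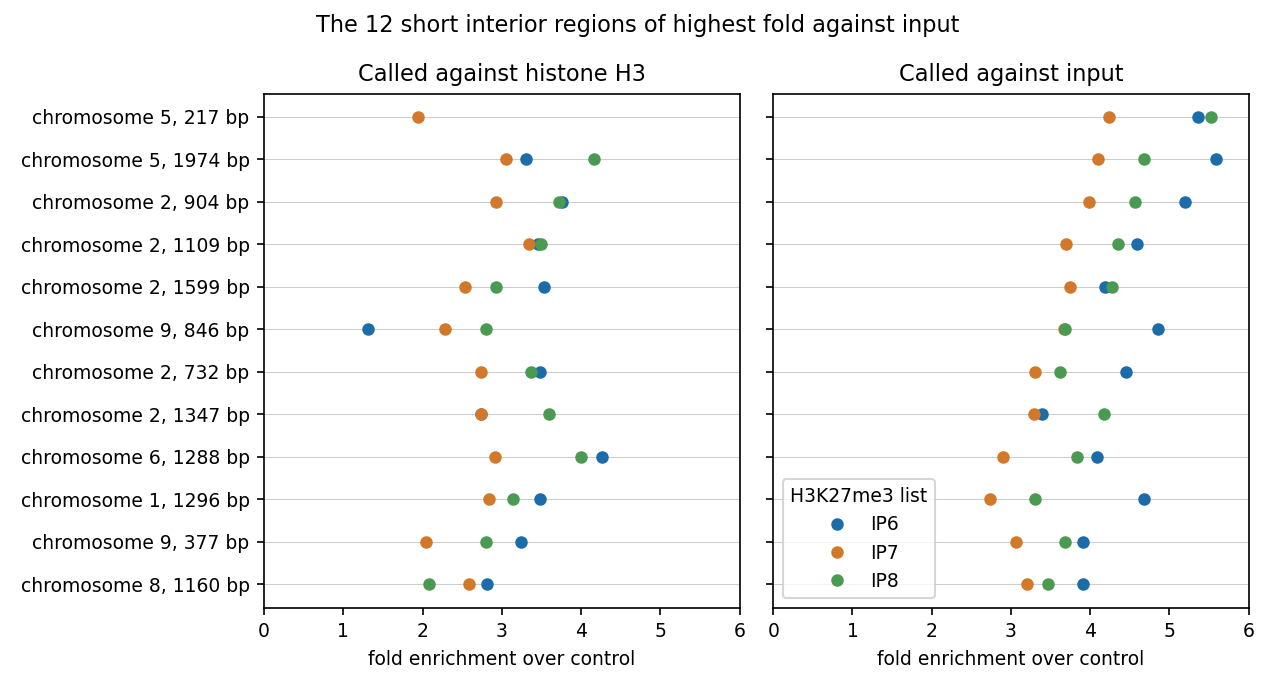
Fold enrichment in each list for the 12 short interior regions with the highest mean fold against input, one row per region with its chromosome and length; points are the 3 H3K27me3 immunoprecipitations called against histone H3 (left) and against input (right). The folds against input lie between 2.74 and 5.59, with IP7 lowest in every row, and the top row, 217 bp on chromosome 5, has a single point against H3.

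On the chromosomes without a region among those 12, the leading short regions had more modest values. They were chr3:309430-309846 (417 bp, mean fold 3.27 ± 0.410 against input), chr10:149119-149462 (344 bp, 3.16 ± 0.912), chr7:357721-359663 (1943 bp, 3.14 ± 0.309) and chr4:148250-149275 (1026 bp, 2.81 ± 0.346), with n = 3 lists each. Support against H3 differed among them. The chromosome 10 and chromosome 7 regions had peaks in all 3 lists against H3 (means 2.60 ± 0.192 and 1.88 ± 0.339). The chromosome 3 region had 3.51 in IP7 and 1.20 in IP8, with no peak in IP6, and the chromosome 4 region 1.53 in IP6 and 1.08 in IP8, with no peak in IP7.

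At the other extreme were regions barely above their control. The 5 lowest among those found in all 3 lists had mean folds against input between 1.11 and 1.15. The lowest, chr6:120246-121977 (1732 bp), had 1.13, 1.03 and 1.17, and its −log10 q was 3.13, 3.01 and 4.32. It nonetheless had borders alike in the 3 lists, with peaks of 1732, 1699 and 1846 bp, and 94.0% of it lay in the genes CMF049T and CMF048C. The other 4 (chr1:99590-101327, chr8:106288-107606, chr8:320225-321000 and chr7:148628-150387) overlapped no gene, and chr8:320225-321000 had no peak against H3 in any list.

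The 3 regions nearest to each threshold on either side are given next, too few to show whether fold changes there. Over whole classes, the median fold against input averaged 1.68 in the short interior regions of chromosomes 1 to 10. It averaged 1.55 in the long interior regions of these chromosomes and 1.96 in the end zones of all chromosomes (n = 3 lists each). The longest regions kept, chr5:159665-161651 (1987 bp), chr5:58269-60242 (1974 bp) and chr5:342813-344762 (1950 bp), had mean folds of 1.29, 4.79 and 1.24 against input. The shortest interior regions over the limit, chr5:373990-376006 (2017 bp), chr4:133550-135572 (2023 bp) and chr9:201692-203717 (2026 bp), had 1.41, 1.74 and 2.32. At the border of the interior, chr6:50275-51412, chr2:50368-51476 and chr1:52060-53355 (midpoints 50.8 to 52.7 kb from an end) had 1.25, 4.21 and 3.57, and the nearest short regions left out, chr8:49218-50777, chr5:49242-50249 and chr8:689076-690969 (49.7 to 50.0 kb), had 1.45, 4.41 and 1.61.

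Whether the short regions also stood out from the nucleosomes themselves was asked with the lists called against H3, a control that the selection did not use, although the H3K27me3 libraries are the same. A peak in at least 2 of these lists overlapped 231 of 302 regions (76.5%), beside 81.0% of all consensus regions. A peak in all 3 was found for 168, in 2 for 63, in 1 for 37 and in none for 34 (11.3%, beside 8.00% of all consensus regions). All 6 lists held a peak in 145 regions (48.0%), beside 56.5% of all consensus regions, 45.0% of the short interior regions of chromosomes 11 to 20 and 75.4% of the 126 long interior regions of the same chromosomes. Length is part of the selection and a longer region meets a peak more readily, so the difference from long regions was not tested.

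Set against the short interior regions of chromosomes 11 to 20, the share with a peak against H3 did not stand apart. It was 71.2% (IP6), 70.9% (IP7) and 78.8% (IP8) on chromosomes 1 to 10, a mean of 73.6% ± 4.50, and 70.5%, 66.9% and 79.0% on chromosomes 11 to 20, a mean of 72.1% ± 6.21 (SD, n = 3 each). The values of the 2 sets overlapped and the difference of 1.50 percentage points was smaller than the spread between lists (exact two-sided permutation test, p = 0.6, adjusted p = 0.6 over 3 tests). The difference was 0.607 points when IP6 was left out, 0.769 when IP7 was left out and 4.72 when IP8 was left out. It was 0.707 points with an overlap of at least 50% of the region and 11.04 points for peaks of at least 2-fold, and it took the opposite direction, -2.12 points, among regions under 1000 bp.

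The median fold against H3 was higher on the small chromosomes in each list, in a test that could not reach 0.05. The median was 1.58 (IP6), 1.56 (IP7) and 1.61 (IP8) in the short regions of chromosomes 1 to 10, a mean of 1.58 ± 0.0238, and 1.40, 1.45 and 1.50 in those of chromosomes 11 to 20, a mean of 1.45 ± 0.0504 (SD, n = 3 each). The 2 sets of values did not overlap and each of the 3 lists was higher on the small chromosomes, by 0.131 on average. All lists were measured over the same regions, so neither the SD nor the separation measures how the median would vary with other regions. Among the small chromosomes the IP6 median ran from 1.21 on chromosome 1 to 2.38 on chromosome 2, a wider range than the difference between the sets. With 3 lists a side no smaller p than 0.1 is possible, and the exact two-sided permutation p was 0.1 (adjusted p = 0.15), so the difference, although larger than the spread between lists, could not pass a threshold of 0.05. The difference was 0.0865 among regions under 1000 bp, and sets built from peaks of at least 2-fold gave -0.0841, the opposite direction. It was 0.0938 with an end zone of 100 kb (exact permutation p = 0.2) and 0.169 with one of 20 kb (p = 0.1). For peaks with a −log10 q of at least 5 it was 0.159 (exact permutation p = 0.3). Where p was above 0.1, the values of the 2 sets overlapped. Regions without a peak against H3 have no value here.

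**Figure D2:**
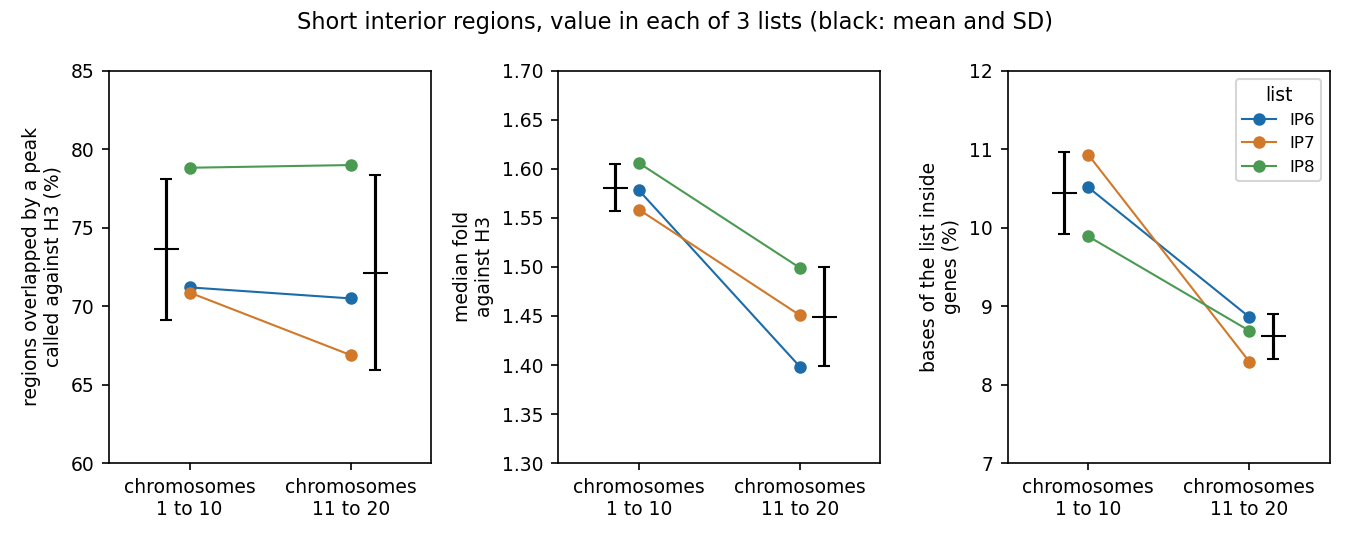
Values of the short interior regions of chromosomes 1 to 10 (left) and 11 to 20 (right) in each of 3 lists, joined by list, with the mean and SD in black: the percent of regions overlapped by a peak called against H3, the median fold against H3, and the percent of bases inside genes. The y axes do not start at 0; the sets overlap in the first panel (73.6% and 72.1% on average) and are separate in the other panels.

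The 34 regions without any peak against H3 were mostly short. Their median length was 404.5 bp, and that of the 168 regions found in all 3 lists against H3 was 1141.5 bp. A peak in at least 2 lists against H3 was held by 44.8% of the 58 regions under 500 bp, by 77.3% of the 97 from 500 to 1000 bp, by 90.5% of the 95 from 1000 to 1500 bp and by 84.6% of the 52 above that. Support against input followed length as well, since 50.0% of the regions under 500 bp and 88.5% of those from 1500 bp had a peak in all 3 input lists. Fold against input was lower in the 34 too, with medians of 1.59, 1.27 and 1.52, against 1.84, 1.76 and 1.92 in the 168 (IP6, IP7 and IP8).

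Among the 34, 13 had a peak in all 3 lists against input. The one with the highest fold was chr6:199631-200201 (571 bp), with 2.53, 1.68 and 2.54, between CMF076C and CMF078C. It was followed by chr8:436395-437583 (1189 bp, mean fold 1.71 ± 0.249), chr4:236150-236503 (354 bp, 1.70 ± 0.797), chr8:607475-607764 (290 bp, 1.69 ± 0.122) and chr8:432777-434042 (1266 bp, 1.65 ± 0.209), with n = 3 lists each. The chromosome 4 value is the least certain of the 5, with 2.57 in IP6, 1.00 in IP7 and 1.52 in IP8. The first and last of the chromosome 8 regions as listed here lie on either side of CMH170C, 229 bp and 347 bp from it.

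Chromosome 8 held 11 of the 34 regions that had no peak against H3. On this chromosome 18 of 36 short interior regions (50.0%) had a peak in at least 2 lists against H3, the lowest share of the 10 chromosomes, followed by chromosome 7 with 19 of 31 (61.3%), and chromosome 10 had the highest, 34 of 39 (87.2%). In the single lists, the share on chromosome 8 was 52.8%, 44.4% and 55.6%, and that on the other 9 small chromosomes 73.7%, 74.4% and 82.0% (IP6, IP7 and IP8). The shortfall of chromosome 8 was seen in each list. The median length of the regions there was 1108.5 bp, beside 962.5 bp in all 302. Their median folds against input were 1.56, 1.60 and 1.73, beside 1.70, 1.67 and 1.70 on the other 9. Whether length or fold bears on the shortfall was not tested. The long interior regions of chromosome 8 also had the lowest share of their class on the small chromosomes, 10 of 13 (76.9%), where the other 9 ran between 78.6% and 100%, whereas all 14 regions of its end zones had a peak in at least 2 lists against H3. Among chromosomes 11 to 20, the lowest shares of short regions were 59.5% on chromosome 18 and 62.5% on chromosome 11. Chromosome 8 was singled out after its values were seen and no test was run.

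**Figure D3:**
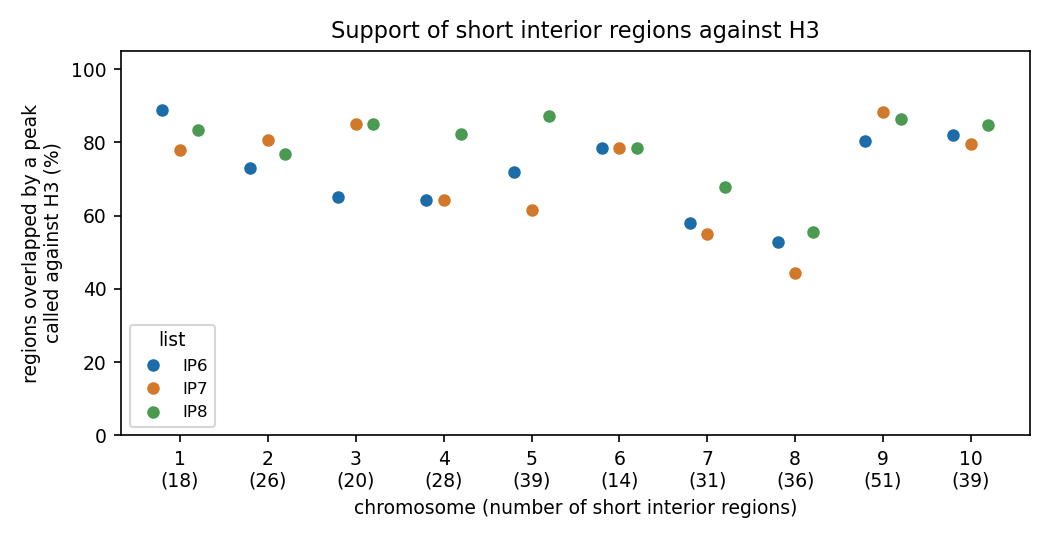
Percent of short interior regions overlapped by a peak called against H3, for each chromosome from 1 to 10 (number of regions in brackets) and each of the 3 lists. Chromosome 8 lies lowest in every list, at 44.4% to 55.6%, whereas chromosome 10 lies between 79.5% and 84.6%.

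Where a region had a peak against both controls, the fold against H3 tended to be the lower one. It was below the fold against input in 124 of 207 regions in IP6 (59.9%), in 114 of 191 in IP7 (59.7%) and in 140 of 235 in IP8 (59.6%), with median differences of -0.17, -0.11 and -0.14 fold. The selection required peaks against input, and its bearing on this order was not tested. The order was not particular to these regions. The mean of the list medians was 1.53 against H3 and 1.61 against input in all consensus regions. In the short interior regions of chromosomes 11 to 20 it was 1.45 and 1.57. Among the 145 regions in all 6 lists, the fold against H3 was lower in every tag in 51, higher in every tag in 24 and mixed in 70. The mean folds against the 2 controls were within 1.5 times of each other in 120 of the 145, and across these regions, which share their H3K27me3 libraries, Pearson's r was 0.594 and Spearman's rho 0.562.

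In 10 regions the mean fold against H3 was at least 1.5 times that against input, and in 15 the reverse held. Of the first kind were 2 of the 5 regions with the highest fold against H3. In chr5:85758-86902 (1145 bp), between CME030C and CME031C, the fold was 4.30, 3.39 and 3.46 against H3 and 1.68, 1.15 and 1.36 against input. In chr9:406648-408192 (1545 bp), which touches CMI148C, it was 3.83, 3.11 and 4.19 against H3 and 1.23, 1.23 and 1.44 against input. In both regions the lowest value against H3 exceeded the highest against input. By fold against input alone they would count among the weakly enriched regions.

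The highest mean fold against H3 of all, 3.99 ± 0.552, was that of chr5:78122-79372 (1251 bp), which overlaps the miscellaneous RNA gene CME027T over 16.6% of its length. Against input its values scattered, with 4.48 in IP6, 2.44 in IP7 and 1.47 in IP8 (mean 2.80 ± 1.54, SD, n = 3). The 5 regions highest against H3 were completed by chr6:74951-76238 and chr5:58269-60242, described above.

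The short regions were next ordered by distance from the nearer end of the span. Those at 50 to 100 kb had the highest enrichment, with median folds of 2.06, 1.90 and 2.21 against H3 and 2.2, 1.88 and 2.23 against input (55 regions). At 100 to 150 kb (55 regions) the medians were 1.48, 1.60 and 1.51 against H3 and 1.71, 1.43 and 1.58 against input. At 150 to 200 kb (59 regions) they were 1.47, 1.54 and 1.48 against H3 and 1.75, 1.71 and 1.52 against input. Beyond 200 kb (133 regions) they were 1.55, 1.43 and 1.61 against H3 and 1.59, 1.61 and 1.70 against input. The median fold was thus higher in the outermost bin in every list, with little order among the medians farther in.

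The number of regions did not follow the same course: there were 55.0 per megabase at 50 to 100 kb, 59.0 at 150 to 200 kb and 69.8 beyond 200 kb. A fold of at least 2 in all 3 lists against input was reached by 13 of 43 regions in the outermost bin (30.2%). The next bins were close to it, with 12 of 44 at 100 to 150 kb (27.3%) and 11 of 42 at 150 to 200 kb (26.2%). Beyond 200 kb it was 16 of 96 (16.7%). The pattern was not shared by each chromosome. Among regions found in all 3 lists against input, 9 chromosomes had some on both sides of 100 kb. The median of their mean folds was higher within 100 kb than beyond on 7 of these, and lower on chromosome 3 (1.87 within and 2.58 beyond) and chromosome 6 (1.69 and 1.96), each with 3 such regions within 100 kb. Distance from the end is part of the selection, so none of this was tested.

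**Figure D4:**
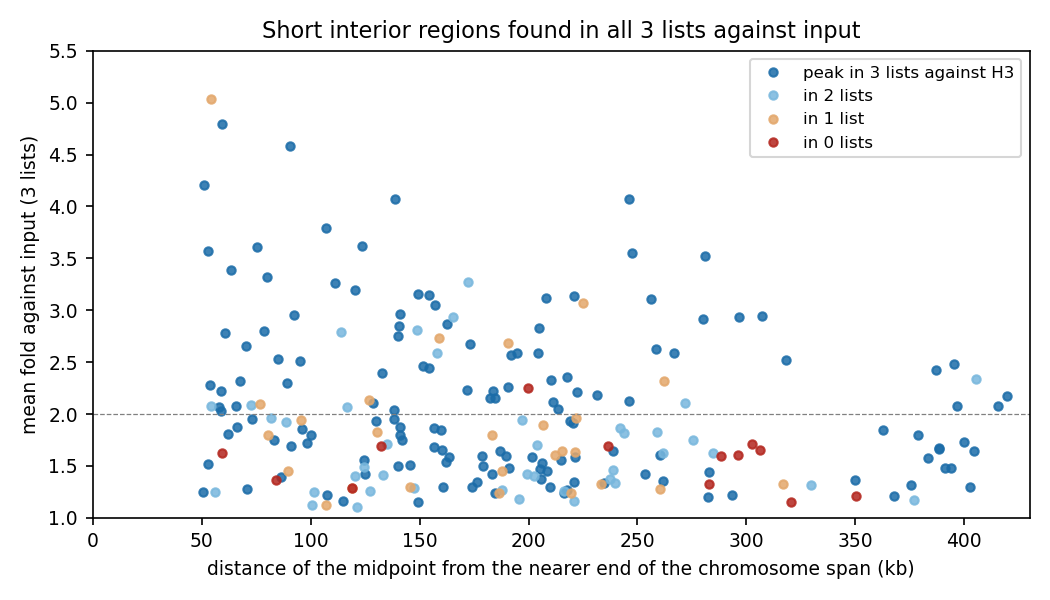
Mean fold against input over 3 lists for the 225 short interior regions found in all 3, against the distance of the midpoint from the nearer end of the chromosome span in kb; colours give the number of lists against H3 with a peak, and the dashed line marks a fold of 2. The highest point, 5.04 at 54.4 kb, has a peak in 1 list against H3, and most points beyond 200 kb lie below the line.

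The position of the short regions relative to genes, which the selection did not use, was measured with the RefSeq annotation of the nuclear genes. The regions lay mainly between the genes of this annotation. It lists 5373 genes, fewer than the study's own total, which included hypothetical proteins and transcripts. Repetitive elements, on which the study also found H3K27me3, were not compared. A region without a gene here may therefore hold a locus that the annotation lacks. Of the 302, 250 overlapped no gene (82.8%; 95% Wilson interval 78.1% to 86.6%, which covers counting error only), beside 76.1% of all consensus regions. The share without a gene was 85.4% among the short interior regions of chromosomes 11 to 20. Genes occupied 10.2% of the bases of the 302 regions and 13.7% of those of all consensus regions, against 49.5% of the interior of chromosomes 1 to 10. In 24 of the 302 regions at least 50% of the bases were in genes and 8 lay wholly inside one or more genes. Among all 1337 consensus regions these counts were 119 and 36, so neither was particular to the short regions. Regions of 1500 to 2000 bp overlapped no gene in 61.5% of cases, and those under 500 bp in 89.7%.

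The share of short-region bases inside genes, taken over the peaks of each list, was larger on the small chromosomes in all 3 lists. It was 10.5% (IP6), 10.9% (IP7) and 9.89% (IP8) on chromosomes 1 to 10, a mean of 10.4% ± 0.524, and 8.86%, 8.29% and 8.69% on chromosomes 11 to 20, a mean of 8.61% ± 0.291 (SD, n = 3 each). The 2 sets did not overlap and the difference was 1.83 percentage points, but the exact two-sided permutation test gave p = 0.1, the smallest possible, and an adjusted p of 0.15. Each list was measured over the same regions and genes, and these same lists defined the regions. Their values are therefore close by construction. Neither the SD nor the separation of the sets measures how the share would vary with other regions. The size of the difference depended on the regions chosen: it was 0.663 points with a length limit of 3000 bp, 0.883 with an end zone of 20 kb and 1.09 with one of 100 kb, and 3.20 for peaks with a −log10 q of at least 5, 3.33 for bases covered in all 3 lists, 3.39 when IP6 was left out, 3.36 when IP8 was left out and 6.83 for peaks of at least 2-fold. It was -1.65 points, in the opposite direction, for regions under 1000 bp.

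Around the centre of a short region the genes drew back on both sides alike. A gene covered the centre in 7.95% of the regions, a point 2000 bp away in 62.1% and a point 5000 bp away in 48.0%. The profile of the short regions of chromosomes 11 to 20 had the same shape (8.49%, 65.1% and 46.9%). In the long interior regions of chromosomes 1 to 10 a gene was met at 12.7% of centres and at 43.7% of points 2000 bp away.

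**Figure D5:**
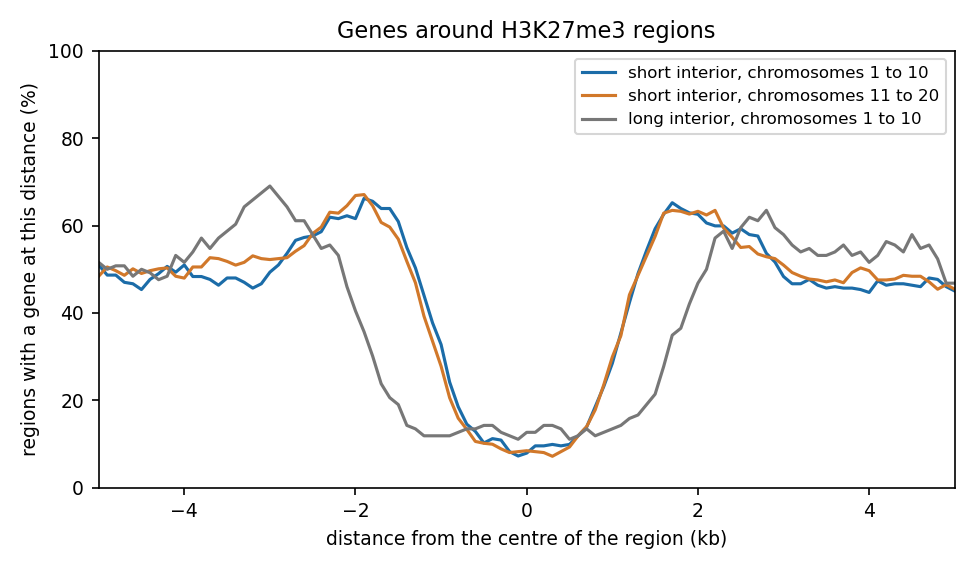
Percent of regions with an annotated gene at each distance from the region's centre, from 5 kb on one side to 5 kb on the other, in steps of 100 bp, for short interior regions of chromosomes 1 to 10 (302) and 11 to 20 (471) and long interior regions of chromosomes 1 to 10 (126). Both short sets dip to about 8% at the centre (7.95% and 8.49%) and the dip of the long regions is wider.

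The spaces between genes that held the 250 gene-free regions were long ones for this genome. They had a median of 2775 bp (1202 to 10310 bp), while all 1495 interior spaces of these chromosomes had a median of 1234 bp. A region filled a median of 31.5% of its space, and its edge lay a median of 546.5 bp from the nearer gene and 1236 bp from the farther one. Only 18 regions came within 100 bp of a gene and 112 came within 500 bp. No space under 1000 bp held a whole short region (0 of 644), and the share was 9.64% of the 363 spaces from 1000 to 2000 bp, 41.3% of the 363 from 2000 to 4000 bp and 36.8% of the 125 longer ones. A space that is shorter than a region cannot hold it, so part of this order is set by length. In 17 spaces 2 or more short regions lay side by side, with up to 3 in one space.

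Short regions touched 60 genes, 40 protein-coding and 20 miscellaneous RNA genes. At least 50% of a gene was covered, in at least 2 lists against input, in 20 cases (18 protein-coding and 2 miscellaneous RNA genes). These are 20 of the 1877 genes of chromosomes 1 to 10, whereas consensus regions of every kind covered 86 of them, and 3.57% of the 5373 genes of the whole genome were covered by any peaks to this extent. The covered genes were not short: their median length of 1311 bp was near the 1335 bp of all genes on these chromosomes.

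The one gene among the 20 whose product is described in the sources used here is CMA095C, a MADS box gene. MADS box genes encode transcription factors, and many of them carry H3K27me3 in *Arabidopsis*. It served the study as its positive locus for H3K27me3. It lay under chr1:295956-297525 (1570 bp), 124565 bp from the nearer span end. Peaks in that region covered 95%, 95% and 93.7% of its 1539 bp in IP6, IP7 and IP8 (mean 94.6% ± 0.750, SD, n = 3). Its enrichment was moderate, with folds of 1.43, 1.27 and 1.34 against H3 and of 1.58, 1.46 and 1.62 against input. All 3 values against input were below the list medians of the short regions given above.

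Of the other covered genes, 4 were covered over their whole length in every list: CMF048C (1083 bp), CMJ091C (669 bp), CMI147C (528 bp) and CMI166C (396 bp). CMF048C lies in the region of lowest fold described above, and 65.0% of the overlapping CMF049T was covered by the same peaks. CMJ091C, by contrast, lay in chr10:279333-280524, with folds of 1.52, 1.76 and 1.81 against H3 and of 2.94, 2.67 and 3.15 against input. In the regions over CMI147C and CMI166C the mean fold was higher against H3 than against input. The region over CMI166C, chr9:459978-461037, had 2.01, 1.68 and 2.2 against H3 and 1.68, 1.27 and 1.14 against input. Over CMI147C (chr9:403614-405030), this order held in IP7 and IP8 (3.00 and 3.48 against H3, 1.18 and 1.38 against input) and turned round in IP6 (1.39 against H3, 2.38 against input).

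The strongest enrichment over a mostly covered protein-coding gene was that of CMB054C, of which 87.8% ± 2.94 was covered (SD, n = 3) in the chromosome 2 region with a mean fold of 4.07 against input. The IP6 value in that mean is shared with the next short region, as described above. CMJ101C (91.7% covered) and CMJ030C (66.4%) on chromosome 10 followed the same pattern of higher folds against input, at 3.02, 2.65 and 3.12, and 2.95, 2.65 and 3.28 (IP6, IP7 and IP8). CMG116C on chromosome 7 was covered over 90.0% ± 4.47 but had no peak against H3 in any list and folds of 1.49, 1.10 and 1.39 against input. CMJ203C (chromosome 10) and CMG084C (chromosome 7) were each covered in 2 lists only, CMJ203C with 0% in IP6 and CMG084C with 0% in IP7. The remaining covered genes were CME173C, CMA079C, CME076C, CMG159C, CMI089C, CME021T, CMI275C and CMH020C, with mean coverages between 58.1% and 97.7%, all of them with peaks in all 3 lists against H3.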

How the data were processed

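Per the study's methods, quality-trimmed read pairs were aligned by the authors with Bowtie2 (2.2.6) against the reference of the *C. merolae* Genome Project, v3, and broad peaks were called with MACS2 (2.1) without clonal reads. FastQC (0.11.4) and bedtools (2.17) are named in the submitters' processing notes. Per the file contents, the deposited lists give each peak's mean fold over its control (a ratio) and its −log10 q-value. Peaks were called on each immunoprecipitation separately.

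From these lists, Python 3.11.15 with numpy 2.4.6, pandas 2.3.3 and scipy 1.17.1 computed the regions, overlaps (at least 1 bp) and tests; figures were drawn with matplotlib 3.10.9. A region took the fold of the overlapping peak of a list, the highest where several overlapped. Short interior regions of chromosomes 1 to 10 and 11 to 20 were compared by exact permutation, two-sided, of 3 lists and 3 lists (smallest possible p 0.1), with Benjamini-Hochberg adjustment over 3 tests. The code that builds the regions was tested on simulated lists, and the permutation code on fixed values with a known answer. Both sets of regions are measured in the same 3 lists, so sign flips within tags were the paired alternative. Other alternatives were the fold, the −log10 q, the number of lists, the end zone, the length limit, the overlap and each list left out.

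Genes came from the RefSeq table of assembly ASM9120v1 (5373 nuclear genes), which gives no strand or product. Its coordinate frame was checked by moving the genes along the chromosomes in steps of 100 bp: the share of short-region bases in genes was lowest, 10.1%, at an offset of -100 bp, and was 52.4% and 52.8% at 3000 bp either way, with the lowest value between -200 and 400 bp on each of the 10 chromosomes. None of its coordinates are printed. Sequences are not analysed here.

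The regions named were the 12 highest and 5 lowest by mean fold against input, the highest of each chromosome, the 5 highest against H3, the 5 highest with no peak against H3, and 3 on each side of both thresholds; the genes named were those at least 50% covered in at least 2 lists, those overlapping or flanking such regions, and CMA095C. The regions and lists were chosen with earlier results of these data known.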

Additional observations from a re-analysis of the deposited data

How the results depend on the processing

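Under 14 alternatives the difference between chromosomes 1 to 10 and 11 to 20 in the share of short regions overlapped against H3 kept its direction in 13, with values from -2.12 to 11.04 percentage points. The difference in median fold against H3 did so in 12 of 13 and that in the share of bases inside genes in 13 of 14. None of them reached a threshold of 0.05, which no setting could. A length limit of 1000 bp reversed the overlap share (-2.12 points) and the gene share (-1.65 points), left 155 regions and gave 87.1% without a gene. Peaks of at least 2-fold reversed the difference in fold (-0.0841) and left 92 regions. The causes were not tested. With each list left out in turn, where the smallest possible p is 0.333, the differences ran from 0.607 to 4.72 points (overlap against H3), 0.123 to 0.130 (fold) and 1.38 to 3.39 points (gene share), the number of regions from 246 to 277 and the share without a gene from 82.3% to 84.5%. With the tag as replicate block (sign flips, smallest possible p 0.25) the differences of 1.50 points, 0.131 and 1.83 points had exact p-values of 0.5, 0.25 and 0.25, and no call changed. Leaving out chromosome 2 or chromosome 8, both chosen after seeing the data, changed no direction; the latter removes the lowest share overlapped against H3 from 1 set alone, so a larger difference (4.58 points) follows from that choice; without chromosome 2 the differences were 1.19 points, 0.125 and 2.25 points. The lists hold no read counts, so weak peaks cannot be weighed by depth, and a region absent from a list is one that was not called there.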
